A study of Mus musculus with 8 samples.

Results

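Endoplasmic reticulum (ER)-associated degradation, abbreviated ERAD, was followed through 10 of its genes in pancreatic islets, the clusters of endocrine cells that release insulin and other hormones. The 10 genes, out of 35596 gene IDs measured, were Derl1, Derl2, Derl3, Sel1l, Syvn1, Edem1, Edem2, Herpud1, Os9 and Vcp, chosen by name as core parts of the pathway and each matched to 1 gene ID through its symbol. The islets came from male mice of the inbred strain C57BL/6J. The 4 weight-cycled libraries were from mice given a diet with 60% fat for 9 weeks, one with 10% fat for the next 9 weeks, and the 60% diet for a final 9 weeks. The 4 obese libraries were from mice given the 10% diet for 9 weeks and then the 60% diet for 18 weeks. Both groups thus ended on the 60% diet, for 9 unbroken weeks in weight-cycled and 18 in obese mice, and the effect of that span cannot be told apart from that of cycling. Islets were freed with collagenase P and picked by hand, and polyadenylated RNA was sequenced. The labels give neither the animals behind each library nor their ages, so p-values measure the spread between libraries, which may be technical.

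ERAD clears proteins that fail to fold in the ER. Lectins and mannose-trimming proteins mark the glycans of a misfolded client, a membrane ubiquitin ligase complex built around Syvn1 (also called Hrd1) and its adaptor Sel1l receives it, derlins help it across the membrane, and the ATPase Vcp pulls it into the cytosol for the proteasome. Beta cells fold large amounts of proinsulin, and misfolded proinsulin is a known client of the Sel1l and Syvn1 complex. Several of these genes are induced in the unfolded protein response by the transcription factors Xbp1 and Atf6, which bind short elements in their promoters.

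Promoter sequence was taken from RefSeq on GRCm38.p6, in windows of 250 bases before to 50 bases after each start, and 9 of the 10 genes matched. These windows were searched on both strands for the ER stress response element ERSE (CCAAT, any 9 bases, CCACG), for ERSE-II (ATTGG, any 1 base, CCACG), for the core of the unfolded protein response element (TGACG followed by TGG) and for CCACG alone, which is contained in both ERSE forms and, on the opposite strand, in that core. ERSE was present in 0.119% of all 32851 promoter windows and in those of Derl3 and Syvn1. ERSE-II was present in 0.0365% of windows and in that of Herpud1, and the unfolded protein response core in 0.676% and in that of Vcp. CCACG alone was in 32.8% of windows and in 9 of the 10 windows of the matched genes, Derl2 having 2 windows of which 1 held it. The 250 bases before the start are given for Derl3, the gene with the largest fold change of the 10, for Syvn1 and Herpud1, which hold the other ERSE forms and were not called, and for Edem2, which was called and holds none of the 3 longer motifs. Capitals mark the ERSE or ERSE-II match, which in Derl3 reads on the opposite strand and begins at position -156 from the start, in Syvn1 at -44 and in Herpud1 at -52. The windows are chr10:75893148-75893397 (plus strand) for Derl3, chr19:6046326-6046575 (plus strand) for Syvn1, chr8:94386179-94386428 (plus strand) for Herpud1 and chr2:155729476-155729725 (minus strand) for Edem2.
Derl3: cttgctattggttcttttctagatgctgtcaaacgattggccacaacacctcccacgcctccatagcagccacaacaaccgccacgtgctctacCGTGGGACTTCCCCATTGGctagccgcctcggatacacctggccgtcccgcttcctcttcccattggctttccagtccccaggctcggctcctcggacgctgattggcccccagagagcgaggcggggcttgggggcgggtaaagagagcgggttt
Syvn1: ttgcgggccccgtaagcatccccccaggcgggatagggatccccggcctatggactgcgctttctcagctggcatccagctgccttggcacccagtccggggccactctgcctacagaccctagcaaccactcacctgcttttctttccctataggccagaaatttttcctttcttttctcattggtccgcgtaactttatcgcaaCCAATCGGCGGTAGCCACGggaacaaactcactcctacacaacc
Herpud1: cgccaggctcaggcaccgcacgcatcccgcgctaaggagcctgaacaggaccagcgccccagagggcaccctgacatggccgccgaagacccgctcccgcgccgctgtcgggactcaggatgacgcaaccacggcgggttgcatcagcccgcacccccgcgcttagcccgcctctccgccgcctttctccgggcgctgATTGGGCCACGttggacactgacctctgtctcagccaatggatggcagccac
Edem2: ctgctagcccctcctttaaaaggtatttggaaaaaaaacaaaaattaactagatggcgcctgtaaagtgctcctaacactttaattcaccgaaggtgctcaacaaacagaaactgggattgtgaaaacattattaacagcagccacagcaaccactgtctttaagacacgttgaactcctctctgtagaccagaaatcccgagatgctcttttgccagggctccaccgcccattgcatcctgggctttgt

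Values were TPM, which give a gene's share of its library per transcript length, so levels of different genes can be compared. TPM hold no record of sequencing depth, so depth is unknown here and counting intervals cannot be given. Fold changes are weight-cycled minus obese on the log2(TPM + 1) scale, which understates changes of low genes, and were tested with limma across 8127 genes whose mean over the 8 libraries was 1 TPM or more, with Benjamini-Hochberg adjustment and a threshold of 0.05. The median fold change of all tested genes was -0.26. Of those genes, 98 (1.21%) passed as higher in weight-cycled islets and 1946 (23.9%) passed as lower. After median-of-ratios scaling, which divides each library by its median ratio to the mean library and brought the median of all genes to 0.03, 79 (0.972%) were called higher and 24 (0.295%) lower. Median-of-ratios size factors were 0.770 to 1.10 in weight-cycled and 1.03 to 1.26 in obese libraries, weight-cycled replicate 1 having the 1.10. The insulin genes Ins1 and Ins2 took 75.4% to 78.8% of TPM in weight-cycled and 76.9% to 78.4% in obese libraries, and of 10 beta-cell markers 0 were called higher and 6 lower on TPM. Of the markers of other cell types, 3 of 4 macrophage markers tested and 2 of 5 endothelial markers were called lower, beside the 23.9% of all genes. The macrophage list summed to 11.3 to 19.97 TPM in weight-cycled and 17.8 to 27.6 TPM in obese libraries, and the endothelial list to 24.3 to 50.3 TPM in weight-cycled and 44.3 to 71.4 TPM in obese libraries. Their part in the results was not tested.

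All 10 genes passed the filter on low values. On TPM as deposited, Derl3 and Edem2 rose in weight-cycled islets, 2 of 10 beside the 1.21% of all tested genes called higher, 0 fell beside the 23.9% called lower, and 8 were not called, of which Edem1 and Vcp had an unadjusted p under 0.05. Their median fold change was -0.04, against -0.26 for all tested genes. Of the 10, 9 had a mean of at least 5 TPM, and the 3480 genes at that level had a median of -0.20. After median-of-ratios scaling Edem1 was called higher as well, 3 of 10 beside 0.972%, and 0 were called lower beside 0.295% (0 lower also at an unadjusted p under 0.05). All 10 fold changes were then above 0, as were 54.7% of those of all tested genes. The median of the 10 was 0.33 against 0.03 for all tested genes. With each library's trend with transcript length removed, the same 3 were called higher and 0 lower, beside 157 higher and 131 lower of 8123 tested genes. The median of the 10 was then 0.26, against -0.01 for all tested genes. The number called depended on single libraries. On TPM it was 0 without weight-cycled replicate 2 or 4 or obese replicate 1 or 3 (3 at an unadjusted p under 0.05 in each), 1 without weight-cycled replicate 3 or obese replicate 2 or 4, and 3, of which 1 lower, without weight-cycled replicate 1. After scaling it was 0 without weight-cycled replicate 4 or obese replicate 1, 3 or 4 (4 or 5 at an unadjusted p under 0.05), 1 without weight-cycled or obese replicate 2, 2 without weight-cycled replicate 3, and 7, all higher, without weight-cycled replicate 1. Over all tested genes, leaving out weight-cycled replicate 1 gave 4660 calls of 8064 on TPM (4390 lower) and 2973 after scaling (2047 higher). Fits that called 0 of the 10 called 0 to 39 of all tested genes on TPM and 0 to 14 after scaling.

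**Figure D1:**
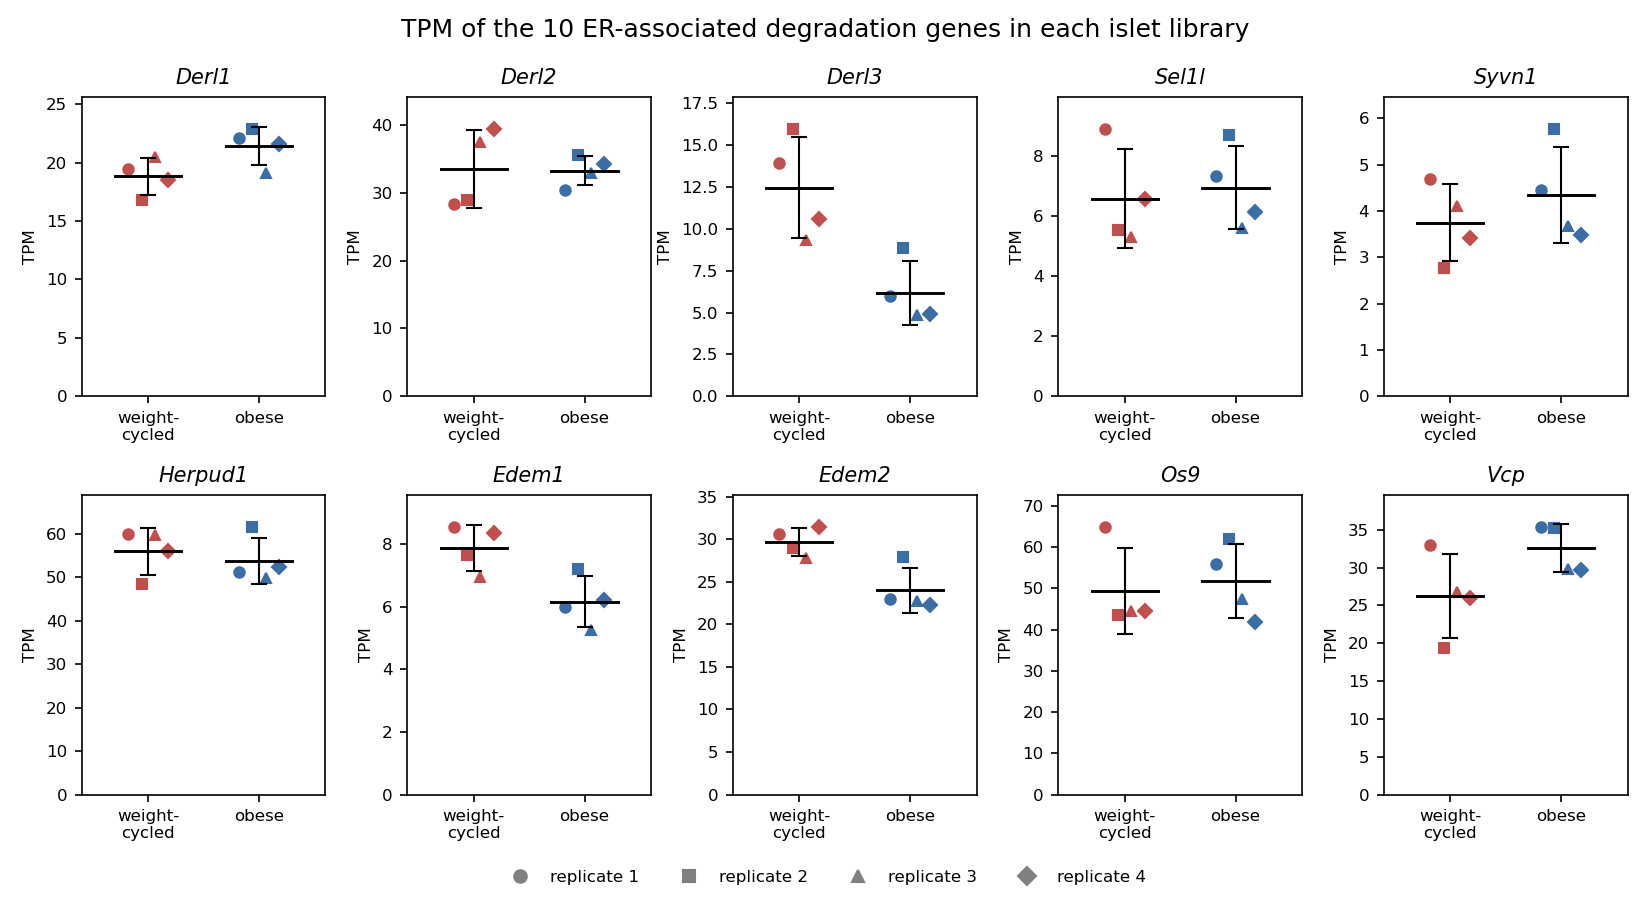
TPM of the 10 ERAD genes (vertical axes, each starting at 0) in the 4 weight-cycled (red) and 4 obese (blue) libraries, with a symbol for each replicate number, the group mean as a line and its SD as bars. The groups are apart for Derl3, at 9.33 to 15.98 TPM in weight-cycled and 4.88 to 8.88 TPM in obese libraries, and overlap for the other 9 genes.

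Derlins are multispanning ER membrane proteins that pass clients towards the ligase and Vcp, and Derl3 is the family member whose mRNA is largely restricted to secretory tissues and is induced in the unfolded protein response. Derl3 (ENSMUSG00000009092.5, chromosome 10, 75893413 to 75895941, plus strand, GENCODE M21 on GRCm38) was at 13.9, 15.98, 9.33 and 10.6 TPM in weight-cycled replicates 1 to 4, against 6.02, 8.88, 4.88 and 4.89 TPM in obese replicates 1 to 4. Every weight-cycled library lay above every obese library, the closest being weight-cycled replicate 3 and obese replicate 2. The means were 12.5 ± 3.04 TPM in weight-cycled and 6.17 ± 1.89 TPM in obese islets (SD, n = 4 each), a ratio of 2.02. The fitted log2 difference of 0.92 (SE 0.190) passed the threshold (limma adjusted p = 0.0303) and is 1.17 above the median of all genes. After median-of-ratios scaling it was 1.26 (limma adjusted p = 0.0226). The fold change was above 0 under all 32 alternatives run and past the threshold under 23. Without single libraries it ran from 0.79 to 1.08 on TPM and was not called without weight-cycled replicate 2 (limma adjusted p = 0.0841) or 4 (0.0738) or obese replicate 1 (0.108) or 3 (0.0664). In bulk islets a change in the number of cells of a type and in RNA per cell cannot be told apart.

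Because Derl3 is abundant in other secretory cells, markers of these were read beside it. The 20 acinar cell markers summed to 9427 TPM in weight-cycled replicate 1, 4006 to 4576 TPM in the other 3 weight-cycled libraries and 3198 to 5949 TPM in the obese libraries. Of the 18 acinar markers tested, 0 were called by limma on TPM and 0 had an unadjusted p under 0.05, and the list's median fold change was 0.20. Of the acinar transcription factor genes, Ptf1a was below 0.081 TPM in every library and Bhlha15 at 1.99 to 3.78 TPM in weight-cycled and 2.73 to 4.56 TPM in obese libraries. Rbpjl was at 0.331 TPM in weight-cycled replicate 1, 0.0342 to 0.101 TPM in the other weight-cycled libraries and 0.0316 to 0.175 TPM in obese libraries. Without weight-cycled replicate 1 the fold change of Derl3 was 0.86 (limma adjusted p = 0.00284). With the acinar score as a covariate it was 0.83 (limma adjusted p = 0.00347). The fit of all 8 libraries without covariates gave 0.92 and called 2044 of all tested genes. Calls over all tested genes were 4660 without weight-cycled replicate 1 and 4284 with the covariate. The part of acinar RNA in the difference was not tested. The 9 plasma and B cell markers summed to 1.47 to 3.80 TPM in weight-cycled and 2.60 to 5.07 TPM in obese libraries, 1 of the 2 tested was called lower on TPM, and Tnfrsf17, the plasma cell receptor gene, was listed at 0 in all 8.

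The other derlins were not called. Derl1 (ENSMUSG00000022365.6, chromosome 15, 57869502 to 57892448, minus strand), a broadly expressed derlin, was at 19.5, 16.8, 20.5 and 18.5 TPM in weight-cycled replicates 1 to 4, against 22.1, 22.9, 19.1 and 21.6 TPM in obese replicates 1 to 4. The groups overlapped, and the fold change of -0.18 (SE 0.0954) was not called (limma adjusted p = 0.146). Derl2 (ENSMUSG00000018442.13, chromosome 11, 71007164 to 71019841, minus strand) was at 28.3, 29.0, 37.5 and 39.5 TPM in weight-cycled replicates 1 to 4, against 30.5, 35.6, 32.9 and 34.2 TPM in obese replicates 1 to 4. Weight-cycled replicates 1 and 2 lay below and replicates 3 and 4 above all obese libraries, and the fold change was -0.00084 (SE 0.119, limma adjusted p = 0.996). After median-of-ratios scaling the fold changes were 0.18 for Derl1 and 0.37 for Derl2, not called (limma adjusted p = 0.281 and 0.199), although both were called higher there without weight-cycled replicate 1, at 0.27 and 0.55 (limma adjusted p = 0.0326 and 0.00855). Derl2 overlaps Mis12 on the opposite strand over 231 bases.

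Derl3 made up 13.9% to 25.9% of the TPM of the 3 derlins in weight-cycled and 8.04% to 13.2% in obese libraries. The summed derlin TPM was 64.9 ± 3.64 in weight-cycled and 60.9 ± 4.58 in obese islets (SD, n = 4 each), with overlapping ranges. Because a ratio inside a library does not change when the whole library is scaled, 7 ratios of partner genes were compared. The test was a two-sided exact permutation test over the 70 assignments of libraries, whose smallest possible p is 0.0286. Trends with transcript length were not removed from these ratios. Transcript lengths were 1318.5 bases for Derl3, 3175 for Derl1 and 1466 for Derl2. Derl3 over Derl1 was 0.455 to 0.952 in weight-cycled and 0.226 to 0.388 in obese libraries. These ranges did not overlap, the geometric mean ratio being 2.32-fold higher in weight-cycled islets (exact permutation p = 0.0286, 0.20 adjusted over the 7 ratios). Derl3 over Derl2 was 0.249 to 0.551 in weight-cycled and 0.143 to 0.250 in obese libraries, a 2.04-fold difference of geometric means with slight overlap (exact permutation p = 0.0571, adjusted 0.20). The ratio of Derl2 over Derl1 differed by 1.14-fold, within the spread (exact permutation p = 0.229, adjusted 0.40).

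**Figure D2:**
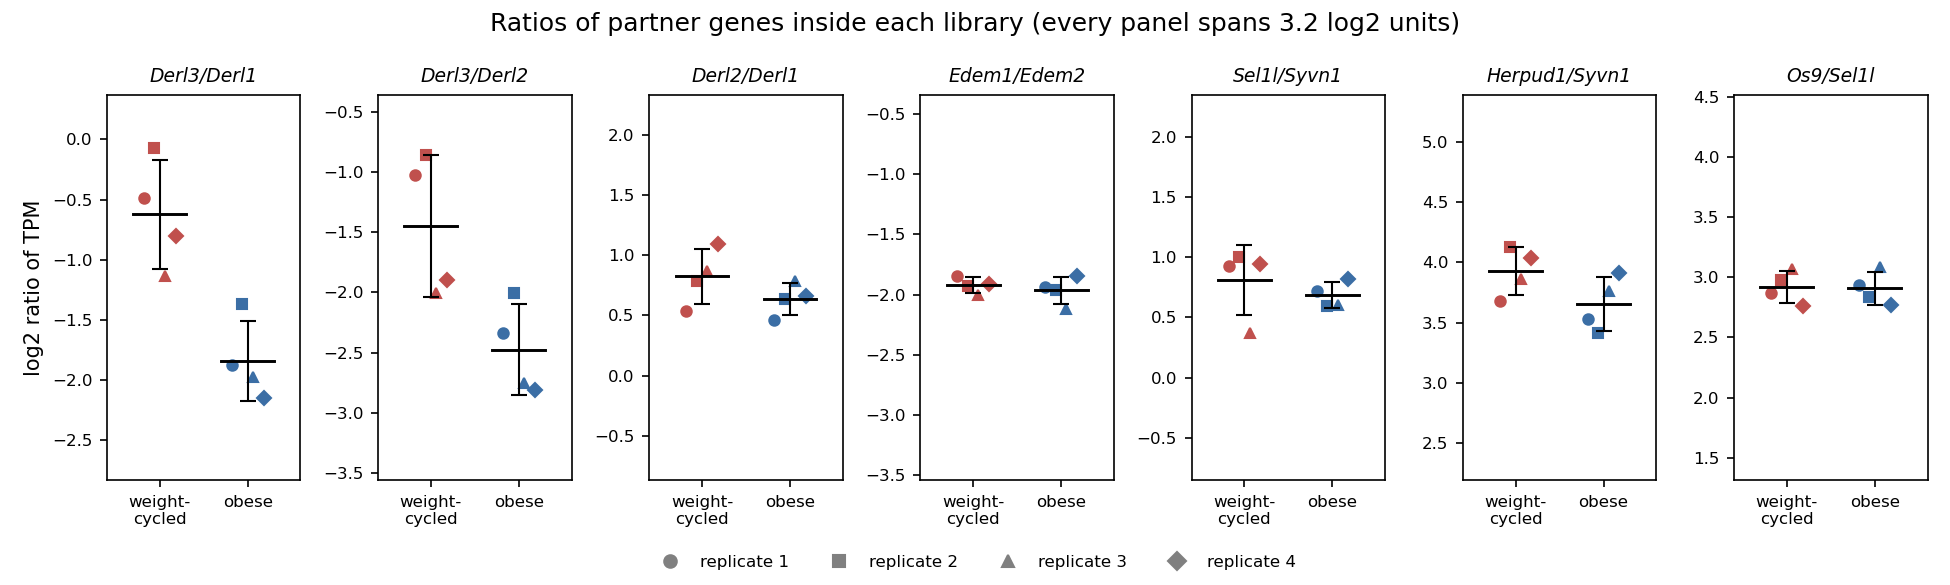
Log2 ratio of the TPM of 2 partner genes inside each library (vertical axes, all of equal span) for 7 pairs, in weight-cycled (red) and obese (blue) libraries, with a symbol for each replicate number, means as lines and SD as bars. For Derl3 over Derl1 the groups are apart, from -1.14 to -0.07 in weight-cycled and from -2.15 to -1.37 in obese libraries, and for the other 6 pairs they overlap.

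Edem1, Edem2 and Os9 act on the glycans of misfolded proteins. Edem1 and Edem2 belong to the mannosidase-like family that starts or continues mannose trimming, and Os9 is the lectin that reads the trimmed glycan and docks on Sel1l. Edem2 (ENSMUSG00000038312.10, chromosome 2, 155701677 to 155729475, minus strand) was at 30.7, 29.0, 27.8 and 31.5 TPM in weight-cycled replicates 1 to 4, against 22.9, 27.97, 22.8 and 22.2 TPM in obese replicates 1 to 4. The groups met through obese replicate 2, which lay just above weight-cycled replicate 3. The means were 29.7 ± 1.64 TPM in weight-cycled and 24.0 ± 2.67 TPM in obese islets (SD, n = 4 each). The fitted log2 difference of 0.30 (SE 0.0960) passed the threshold (limma adjusted p = 0.0439). After scaling it was 0.67 (limma adjusted p = 0.0394). Leaving out single libraries gave 0.27 to 0.38 on TPM, past the threshold without weight-cycled replicate 1 (limma adjusted p = 0.0291) and short of it without any of the other 7 (limma adjusted p from 0.0706 to 0.125). After scaling it gave 0.61 to 0.76, again past the threshold only without weight-cycled replicate 1 (limma adjusted p = 0.00263, otherwise 0.0631 to 0.138). Edem2 was called under 16 of the 32 alternatives.

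Edem1 (ENSMUSG00000030104.9, chromosome 6, 108828641 to 108859356, plus strand) was at 8.55, 7.65, 6.95 and 8.36 TPM in weight-cycled replicates 1 to 4, against 5.99, 7.20, 5.26 and 6.20 TPM in obese replicates 1 to 4. Obese replicate 2 was again the library that overlapped, lying above weight-cycled replicate 3. The mean was 27.8% higher in weight-cycled islets, and the fitted log2 difference of 0.31 (SE 0.110) missed the threshold on TPM (limma adjusted p = 0.0534). It passed after median-of-ratios scaling, at 0.64 (limma adjusted p = 0.0394), and with the length trend removed, at 0.71 (limma adjusted p = 0.0246). Scaled Edem1 was not called without weight-cycled replicate 2 or 4 or any 1 of the obese libraries. The summed TPM of Edem1 and Edem2 was 34.8 to 39.8 in weight-cycled and 28.1 to 35.2 in obese libraries. Their ratio differed by 1.03-fold between groups, within the spread (exact permutation p = 0.543, adjusted 0.633).

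Os9 (ENSMUSG00000040462.13, chromosome 10, 127095650 to 127121131, minus strand) was at 64.9, 43.6, 44.4 and 44.6 TPM in weight-cycled replicates 1 to 4, against 56.0, 62.1, 47.5 and 41.8 TPM in obese replicates 1 to 4. Weight-cycled replicate 1 stood apart from its group, and the other 3 lay near the lowest obese libraries. The fold change was -0.07 on TPM (SE 0.151, limma adjusted p = 0.704) and 0.30 after scaling (SE 0.106, limma adjusted p = 0.116). After scaling and without weight-cycled replicate 1 it was called higher, at 0.27 (limma adjusted p = 0.0470).

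The ligase core comprises Syvn1, the ubiquitin ligase, Sel1l, its adaptor for luminal clients, and Herpud1, a membrane protein with a ubiquitin-like domain that helps assemble the complex. Sel1l (ENSMUSG00000020964.14, chromosome 12, 91806043 to 91849157, minus strand) was at 8.90, 5.53, 5.31 and 6.57 TPM in weight-cycled replicates 1 to 4, against 7.31, 8.69, 5.58 and 6.14 TPM in obese replicates 1 to 4. The groups overlapped over most of their range, and the fold change was -0.07 (SE 0.161, limma adjusted p = 0.720). Syvn1 (ENSMUSG00000024807.18, chromosome 19, 6046576 to 6053712, plus strand) was at 4.68, 2.76, 4.10 and 3.42 TPM in weight-cycled replicates 1 to 4, against 4.44, 5.78, 3.68 and 3.48 TPM in obese replicates 1 to 4. Here too the groups overlapped, with a fold change of -0.17 (SE 0.160, limma adjusted p = 0.391). After scaling the fold changes were 0.26 for Sel1l and 0.13 for Syvn1, not called (limma adjusted p = 0.166 and 0.416), and neither gene was called under any alternative run. The ratio of Sel1l over Syvn1 differed by 1.09-fold between groups (exact permutation p = 0.486, adjusted 0.633), and that of Os9 over Sel1l by 1.01-fold (exact permutation p = 0.886, adjusted 0.886). Syvn1 overlaps Mrpl49 on the opposite strand over 91 bases and the microRNA gene Mir6988 over 59 bases.

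Herpud1 (ENSMUSG00000031770.16, chromosome 8, 94386438 to 94395377, plus strand) was at 59.9, 48.4, 59.6 and 56.0 TPM in weight-cycled replicates 1 to 4, against 51.2, 61.6, 49.9 and 52.5 TPM in obese replicates 1 to 4. Both the highest and the next to lowest of these values fell among the obese libraries, and the lowest was weight-cycled replicate 2. The fold change was 0.06 on TPM (SE 0.101, limma adjusted p = 0.661). After scaling the values were 54.4 to 69.2 in weight-cycled and 40.6 to 51.2 in obese libraries, which did not overlap, but the fold change of 0.43 was not called (SE 0.121, limma adjusted p = 0.0823). It was called after scaling without weight-cycled replicate 1, at 0.50 (limma adjusted p = 0.00550). The ratio of Herpud1 over Syvn1 was 1.21-fold higher in weight-cycled islets, within the spread (exact permutation p = 0.143, adjusted 0.333). The antisense gene Gm15890 overlaps Herpud1 over 535 bases.

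Vcp (ENSMUSG00000028452.7, chromosome 4, 42979963 to 43000507, minus strand), the segregase that extracts ubiquitinated clients, was at 32.9, 19.4, 26.8 and 25.9 TPM in weight-cycled replicates 1 to 4, against 35.4, 35.2, 29.9 and 29.7 TPM in obese replicates 1 to 4. Weight-cycled replicates 2, 3 and 4 lay below all obese libraries and replicate 1 among them. The fold change was -0.32 (SE 0.140, limma adjusted p = 0.0927), close to the median of all genes, and after scaling it was 0.05 (limma adjusted p = 0.753). On TPM and without weight-cycled replicate 1 Vcp was called lower, at -0.43 (limma adjusted p = 0.00942). 1700022I11Rik overlaps Vcp on the opposite strand over 3678 bases.

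Among all tested genes, TPM of 1.3% lay wholly higher and of 21.1% wholly lower in weight-cycled libraries, without overlap. Among the 10 ERAD genes 1, Derl3, was wholly higher and 0 wholly lower. After median-of-ratios scaling the shares were 7.43% higher and 6.25% lower over all tested genes, and 4 of the 10, namely Derl3, Edem1, Edem2 and Herpud1, were wholly higher. Derl3 was at 10.6 to 20.7 on the scaled TPM in weight-cycled and 4.44 to 7.29 in obese libraries, and Edem2 at 27.86 to 38.84 in weight-cycled and 18.15 to 22.96 in obese libraries. Scaled Edem1 was at 7.77 to 10.3 in weight-cycled and 4.74 to 6.04 in obese libraries.

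**Figure D3:**
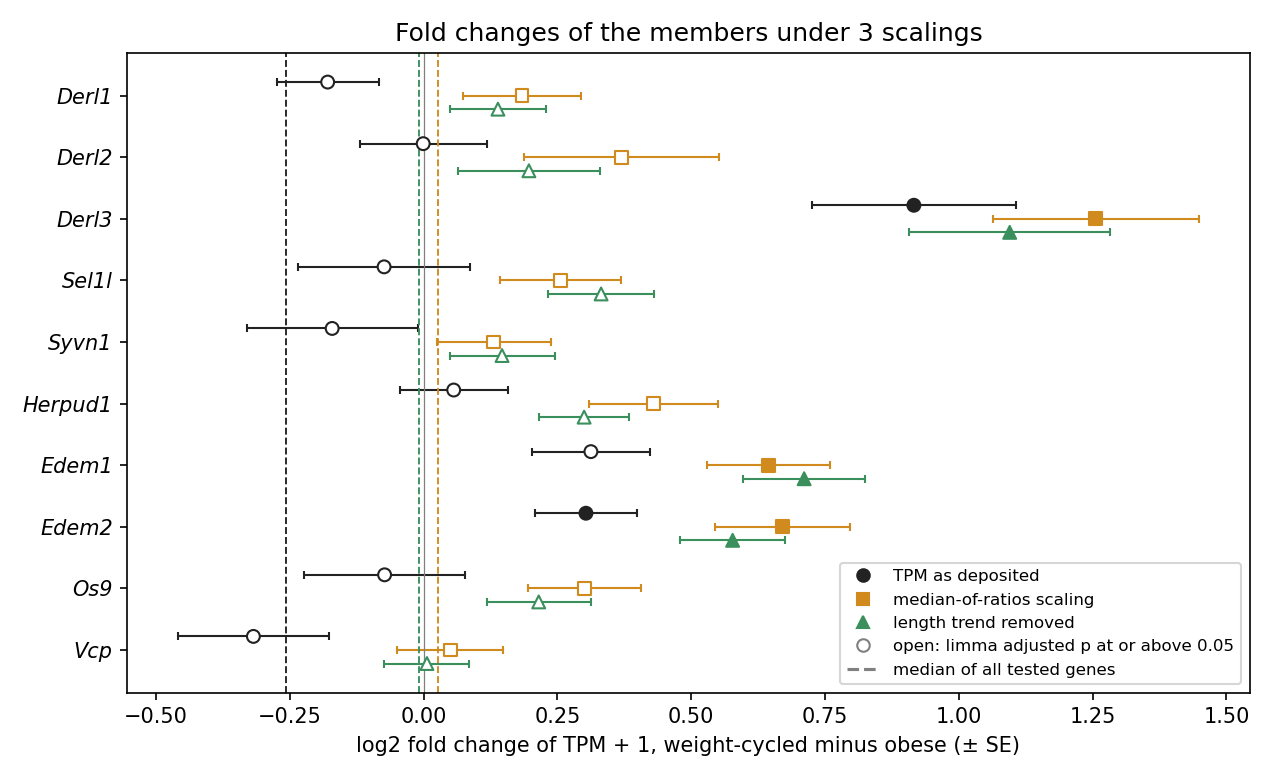
Log2 fold change of TPM + 1 (horizontal axis, weight-cycled minus obese, bars are SE) of the 10 ERAD genes on TPM as deposited, after median-of-ratios scaling and with the length trend removed. Filled symbols passed a limma adjusted p of 0.05, dashed lines mark the medians of all tested genes (-0.26, 0.03 and -0.01), and Derl3 is farthest right under each, at 0.92, 1.26 and 1.09.

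Fold changes on TPM varied with transcript length. Median fold changes of tested genes in 5 bins of rising length were -0.14, -0.16, -0.25, -0.30 and -0.36. All 10 ERAD genes lay above the median of their own bin, by 0.05 for Vcp to 1.08 for Derl3. The excess over the bin was 0.68 for Edem1, whose transcript length of 5817 bases is among the longest of the 10, and 0.61 for Edem2. What underlies the length trend was not tested.

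Averaged over the 8 libraries, the order of levels was Herpud1 (54.9 TPM), Os9 (50.6), Derl2 (33.4), Vcp (29.4), Edem2 (26.9), Derl1 (20.1), Derl3 (9.31), Edem1 (7.02), Sel1l (6.75) and Syvn1 (4.04). Neighbours in this order often exchanged places. Herpud1 was above Os9 in 5 of 8 libraries, Derl2 above Vcp in 6, Vcp above Edem2 in 5, Derl3 above Edem1 in 6 and Edem1 above Sel1l in 4. By contrast Os9 was above Derl2, Edem2 above Derl1, Derl1 above Derl3 and Sel1l above Syvn1 in all 8 libraries. Derl3 ranked 7 in the weight-cycled and 8 in the obese means, and Sel1l ranked 9 in weight-cycled and 7 in obese means. The 10 genes together summed to 244 ± 22.2 TPM in weight-cycled and 241 ± 25.4 TPM in obese islets (SD, n = 4 each), with overlapping ranges.

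Among weight-cycled libraries, 6 of the 10 (Sel1l, Syvn1, Edem1, Herpud1, Os9 and Vcp) were highest on TPM in replicate 1, as were 63.7% of all tested genes. Among obese libraries, 9 of the 10 were highest in replicate 2, as were 37.5% of all tested genes, the exception being Vcp in replicate 1. Derl3 was highest in weight-cycled replicate 2, where Derl1, Syvn1, Herpud1, Os9 and Vcp were at their lowest.

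Of 49 further ERAD genes in 4 lists, 47 passed the filter, Yod1 and Atxn3 being below it. On TPM, 0 were called higher (1 at an unadjusted p under 0.05) and 15 of 47 lower, beside 1.21% higher and 23.9% lower over all tested genes, with a median fold change of -0.30 beside -0.26 for all tested genes. After scaling 1 was called higher and 0 lower, beside 0.972% and 0.295%, with a median of -0.01 beside 0.03, and 8 higher and 1 lower had an unadjusted p under 0.05. The 15 became 0 without weight-cycled replicate 2, 3 or 4 or obese replicate 1, 2 or 3, 12 without obese replicate 4 and 30 without weight-cycled replicate 1, where 29 were lower. The fits that called 0 here called 0 to 71 of all tested genes. Calls over all tested genes were 1728 without obese replicate 4 and 4660 of 8064 without weight-cycled replicate 1, where 4390 were lower. Among the 7 genes of substrate recognition and mannose trimming, 0 were called higher and 1 lower on TPM, beside 1.21% and 23.9%, with a median of -0.19 beside -0.26. The gene that rose after scaling was of this list. Erlec1, an ER lectin related to Os9, was at 29.0 ± 3.17 TPM in weight-cycled and 25.5 ± 3.12 TPM in obese islets (SD, n = 4 each). Its fold change was 0.55 after scaling (limma adjusted p = 0.0394) and 0.18 on TPM (limma adjusted p = 0.200). After scaling, 15 of the 47 were called without weight-cycled replicate 1, 14 of them higher, beside 2973 of 8064 tested genes. Without any other single library 0 of the 47 were called, in fits that called 0 to 51 of all tested genes.

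Among the 21 membrane ligases and cofactors, 0 were called higher and 4 of 21 lower on TPM, beside 1.21% and 23.9% over all tested genes, with a median of -0.15 beside -0.26, and 0 in either direction after scaling, where the smallest adjusted p was 0.0754 and 7 had an unadjusted p under 0.05. March6, a membrane ubiquitin ligase, was at 4.94 ± 0.931 TPM in weight-cycled and 7.41 ± 0.559 TPM in obese islets (SD, n = 4 each). It fell by 0.51 on the log2 scale (SE 0.123, limma adjusted p = 0.0329). Erlin2, which recruits clients to a ligase in ER membranes, was at 3.82 ± 0.494 TPM in weight-cycled and 5.54 ± 0.636 TPM in obese islets (SD, n = 4 each; limma adjusted p = 0.0341).

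Of the 5 ubiquitin-conjugating enzymes, 4 were called lower on TPM (median -0.37), beside 23.9% and a median of -0.26 over all tested genes, and 0 after scaling (median -0.02), beside 0.295% and a median of 0.03, where 0 had an unadjusted p under 0.05. Among the 14 tested genes of extraction and delivery, 6 were called lower on TPM (median -0.39), beside the same 23.9% and -0.26, and 0 after scaling (median -0.12), beside 0.295% and 0.03, where again 0 had an unadjusted p under 0.05. Bag6, a chaperone of released clients, was at 6.91 ± 1.39 TPM in weight-cycled and 10.3 ± 1.14 TPM in obese islets (SD, n = 4 each; limma adjusted p = 0.0345). After scaling the fold changes of March6, Erlin2 and Bag6 lay between -0.19 and -0.13 and were not called.

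**Figure D4:**
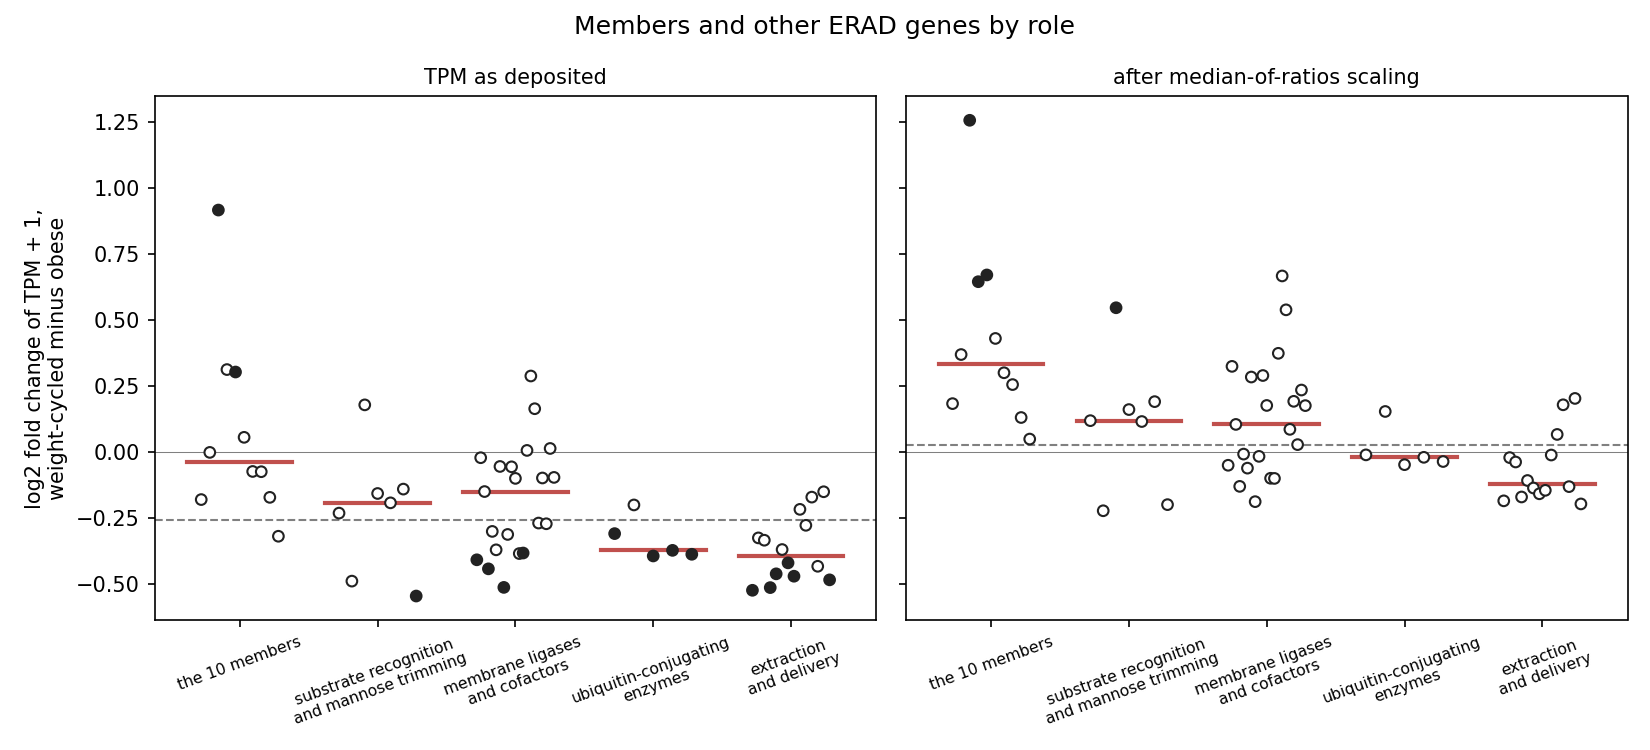
Log2 fold change of TPM + 1 (vertical axis, weight-cycled minus obese) of the 10 ERAD genes and 47 further ERAD genes in 4 lists by role, on TPM as deposited and after median-of-ratios scaling. Filled points passed a limma adjusted p of 0.05, red bars are list medians and dashed lines the median of all tested genes, and the list medians on TPM run from -0.04 for the 10 genes to -0.39 for extraction and delivery.

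Of 3 regulators of the pathway, 0 were called higher on TPM and 1, Atf6, lower, beside 1.21% and 23.9% of all tested genes. After scaling 0 were called, beside 0.972% higher and 0.295% lower, and 1 had an unadjusted p under 0.05. Xbp1, whose spliced mRNA encodes the active factor, was at 59.4 ± 7.57 TPM in weight-cycled and 67.2 ± 3.15 TPM in obese islets (SD, n = 4 each; limma adjusted p = 0.156), a value per gene that does not separate the spliced form. The fold change of Xbp1 was -0.18 on TPM and 0.19 after scaling (limma adjusted p = 0.285), not called in either. Atf6, the membrane-bound factor released on ER stress, was at 1.72 ± 0.693 TPM in weight-cycled and 2.79 ± 0.396 TPM in obese islets (SD, n = 4 each). It fell by 0.51 on the log2 scale on TPM (limma adjusted p = 0.0461), and after scaling its fold change was -0.26 (limma adjusted p = 0.154). Ern1, the sensor that splices Xbp1, was at 2.71 ± 1.07 TPM in weight-cycled and 4.24 ± 0.727 TPM in obese islets (SD, n = 4 each; limma adjusted p = 0.0507).

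The 5 tested genes whose centred log2(TPM + 1) differed least from that of Derl3 over the 8 libraries were Gsto2, Gc, Chil6, Creld2 and Txnip, with root-mean-square differences of 0.185, 0.192, 0.211, 0.233 and 0.245. Gc is on the alpha-cell marker list, of which 2 of 6 genes were called higher on TPM beside 1.21% of all tested genes. The list had a median fold change of -0.23 beside -0.26 and summed to 3124 to 8526 TPM in weight-cycled and 4565 to 12317 TPM in obese libraries. Creld2 was at 67.3 ± 17.8 TPM in weight-cycled and 39.5 ± 4.89 TPM in obese islets (SD, n = 4 each). For Edem2 the 5 were Mthfsd, Igsf5, Hsd3b7, Dnpep and Edem1, with root-mean-square differences of 0.0378, 0.0524, 0.0635, 0.0646 and 0.0680. Edem1 was thus among the 5 genes most like Edem2 in its values across libraries.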

How the data were processed

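Polyadenylated RNA of 4 weight-cycled and 4 obese islet libraries was measured. The authors deposited a table of TPM for each gene. The submitters' processing notes name Salmon 1.5.2 and build mm10. The sources used here do not give the annotation or how transcripts were summed to genes. Each column summed to 999930 to 999949 TPM. Of the gene IDs, 35527 had a symbol and 69 had none. Lengths and coordinates were from GENCODE M21. Genes whose mean reached 1 TPM entered a two-sided limma fit (version 3.58.1, R 4.3.3, trended eBayes) on log2(TPM + 1) without covariates. Median-of-ratios scaling used genes above 0 in every library, and the length trend was removed with a loess of span 0.5. The fit was tested on simulated data. The genes followed, the lists and the rule for named genes (all 10, the 4 further ERAD genes with the smallest p in each direction, 3 regulators, the 5 genes most like each called gene) were chosen with earlier results of these data known. A gene that this rule takes is not reported here. Erlec1 was named because a count of 1 was given. In all 32 alternatives were run.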

Additional observations from a re-analysis of the deposited data

Results flagged for a closer look

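Of 78 groups of 4 libraries checked, 5 had a library far from the other 3, where chance gives about 1 in 20. Os9 was at 64.9 TPM in weight-cycled replicate 1 and 43.6 to 44.6 TPM in the other weight-cycled libraries. The summed TPM of the acinar markers was 9427 in the same library and 4006 to 4576 in the other 3, and whether it bears on Os9 was not tested. Edem2 was at 27.97 TPM in obese replicate 2 and 22.2 to 22.9 TPM in the other obese libraries, and the sum of Edem1 and Edem2 was 35.2 TPM there against 28.1 to 28.9 TPM. The log2 ratio of Sel1l over Syvn1 was 0.37 in weight-cycled replicate 3 and 0.927 to 1.001 in the other weight-cycled libraries.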

How the results depend on the processing

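Counts of calls changed most. On TPM 2044 genes were called, against 1080 with a mean TPM of at least 5, 103 after median-of-ratios scaling, 147 with its medians over tested genes, 162 with length also removed, 286 after quantile scaling, 288 with length removed alone, 1247 after rescaling without hormone, acinar and mitochondrial genes, 4795 with array weights, 4284 with the acinar covariate and 0 without a filter (limma, 5686 at an unadjusted p under 0.05). Leaving out 1 library gave 0 to 4660. For the 10 ERAD genes the 2 calls, both higher, became 0 without a filter (3 at an unadjusted p under 0.05) and 1 with untrended variance. With array weights or the acinar covariate there were 4, of which 3 were higher and 1 lower. Without 1 library there were 0 to 3 on TPM. After median-of-ratios scaling there were 3 with all 8 libraries and 0 to 7 without 1 library. The 15 calls among further ERAD genes, all lower, became 0 without a filter (26 at an unadjusted p under 0.05) or after quantile scaling (14). After median-of-ratios scaling, with or without length removed or over tested genes, and with length removed alone, 0 were lower and 1 was higher. With array weights 28 were called (26 lower), with the acinar covariate 26 (25 lower), and on TPM without 1 library 0 to 30.

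Of the 8 genes not called on TPM, 6 changed sign. After median-of-ratios scaling, with the same scaling over tested genes, and with length also removed, the fold changes were 0.18, 0.14 and 0.23 for Derl1, 0.37, 0.32 and 0.26 for Derl2, 0.26, 0.21 and 0.41 for Sel1l, 0.13, 0.092 and 0.17 for Syvn1, 0.30, 0.25 and 0.31 for Os9, and 0.050, 0.0017 and 0.10 for Vcp. With length removed alone they were 0.14, 0.20, 0.33, 0.15, 0.21 and 0.0061 in that order of genes. Quantile scaling gave 0.15 for Derl2, 0.17 for Sel1l, 0.10 for Syvn1 and 0.047 for Os9. Derl1 and Vcp stayed below 0 there, at -0.0014 and -0.16. Derl2 was at 0.00045 with a pseudocount of 5, 0.013 after rescaling, 0.14 with array weights and 0.037 with the acinar covariate. Without 1 library, with or without scaling, fold changes ran from -0.23 to 0.27 for Derl1, -0.082 to 0.55 for Derl2, -0.21 to 0.34 for Sel1l, -0.26 to 0.22 for Syvn1, -0.21 to 0.36 for Os9 and -0.43 to 0.12 for Vcp. Median-of-ratios scaling divides all genes of a library by 1 size factor. It moved the median fold change of all tested genes from -0.26 to 0.03. Beyond this shift, the cause of the sign changes was not tested.

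Deviations of same-numbered libraries from their group means had correlations across genes of 0.21, -0.276, -0.0522 and 0.231. Libraries of unlike number had correlations of -0.340 to 0.309. These were taken on log2(TPM + 1) without scaling, where size factors differ between libraries, so they cannot decide whether same-numbered libraries were paired. With the replicate block 2903 genes, 3 of the 10 ERAD genes and 20 further ERAD genes were called, and with the block after median-of-ratios scaling 671, 4 and 3, where the uncalled fold changes are those of that scaling. The choice of median-of-ratios scaling over tested genes, with length removed and with the block was made after the data were seen. Fold changes of Derl3, Edem1, Edem2 and Herpud1 were above 0 under all 32 alternatives. TPM keep no depth, so what depth limits cannot be given.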
